A study of Mus musculus with 8 samples.

Results

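Complement transcripts were followed in mouse distal lung cells that the labels describe as epithelium-enriched, across α7 genotype and cigarette smoke (CS). The set held 9 of the 22756 genes counted in each library and was picked by gene symbol, with earlier results of these data known: the C1q chains C1qa, C1qb and C1qc, the central components C3 and C4b, the alternative pathway genes Cfb and Cfp, and the anaphylatoxin receptors C3ar1 and C5ar1. The mice were adults of a > 90percent C57BL/6 strain. All carried an IRES-tauGFP reporter cassette at the 3' end of Chrna7, the gene of the nicotinic α7 receptor. The reference line, α7G, had the genotype Chrna7-IRES-tauGFP, and the second line, α7E260A:G, carried in addition the E260A point mutation that limits calcium coupling of the receptor (Chrna7-E260A-IRES-tauGFP). CS mice breathed side-stream smoke on 5 days per week for 4 months, and controls were not exposed. Each of the 4 combinations of line and exposure had 1 male and 1 female library, so there were 8 libraries in all, and the number of mice behind a library is not stated.

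Complement is a cascade of plasma and cell surface proteins that tags microbes, dying cells and debris. The classical pathway starts when C1q, a bundle of chains from C1qa, C1qb and C1qc, binds its target and its partner proteases cleave C4 and C2, while the alternative pathway amplifies C3 cleavage through factor B (Cfb) and is stabilized by properdin (Cfp). The released fragments C3a and C5a act on the receptors C3ar1 and C5ar1. C1q is made largely by tissue macrophages and dendritic cells, properdin and the anaphylatoxin receptors are typical of myeloid cells, and C3 and C4 are also made by epithelial and stromal cells of the lung.

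The libraries held 8020726 to 10944100 counts on coding sequence (CDS), so 3 counts correspond to 0.27 to 0.37 RPM (reads scaled to a library total of 1000000). The cells had been depleted of CD45-positive cells after lavage, but Ptprc, which encodes CD45, lay between 771 and 1935 RPM, and Epcam, an epithelial marker, between 78.5 and 212 RPM. In RPM Ptprc was above Epcam in every library, although the labels describe the cells as almost wholly EpCAM-positive. Ptprc has the longer CDS, with 4031 bases against 945 for Epcam. Per kilobase of CDS the order turned in the male α7G CS library, with 199.4 for Ptprc and 224.5 for Epcam. In the female α7G CS library the values were close, at 191.4 and 177.4. Chrna7 had no count in 7 of the 8 libraries, so its level checks no genotype label. A list of 14 alveolar macrophage markers summed to 10290 to 17640 RPM in α7G and to 24640 to 40350 RPM in α7E260A:G, and a list of 10 ATII cell markers to 20200 to 30800 RPM in α7G and to 4821 to 14900 RPM in α7E260A:G. In such bulk samples fewer cells of a type and less RNA per cell cannot be told apart. Libraries also differed in how counts depended on CDS length, from -0.242 log2 units per doubling of length in the male α7G CS library to 0.407 in the male α7E260A:G control library.

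Levels were compared between genes per kilobase of CDS. C3 was the most abundant member on that scale, at a mean of 196 RPM per kilobase (range over 8 libraries, 155 to 347). C5ar1 followed at 121 (81.7 to 149.3) and Cfp at 85.3 (56.1 to 109). The C1q chains lay close together at means of 62.3 for C1qa, 56.9 for C1qb and 51.7 for C1qc, with ranges of 19.7 to 195, 19.5 to 151 and 17.2 to 152. C4b had 19.7 (11.4 to 38.6), C3ar1 8.98 (3.40 to 14.6) and Cfb 1.07 (0.71 to 1.58). The ranges of C3 and C5ar1 did not overlap, nor did those of C3ar1 and Cfb, whereas all other neighbours in this order overlapped. The C1q chains were above C5ar1 and Cfp in the male α7G control alone. With a mean count of 22.9 for Cfb and 114.5 for C3ar1, these genes missed the abundance filter of a mean count of 200, and 7 of the 9 members passed it.

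**Figure D1:**
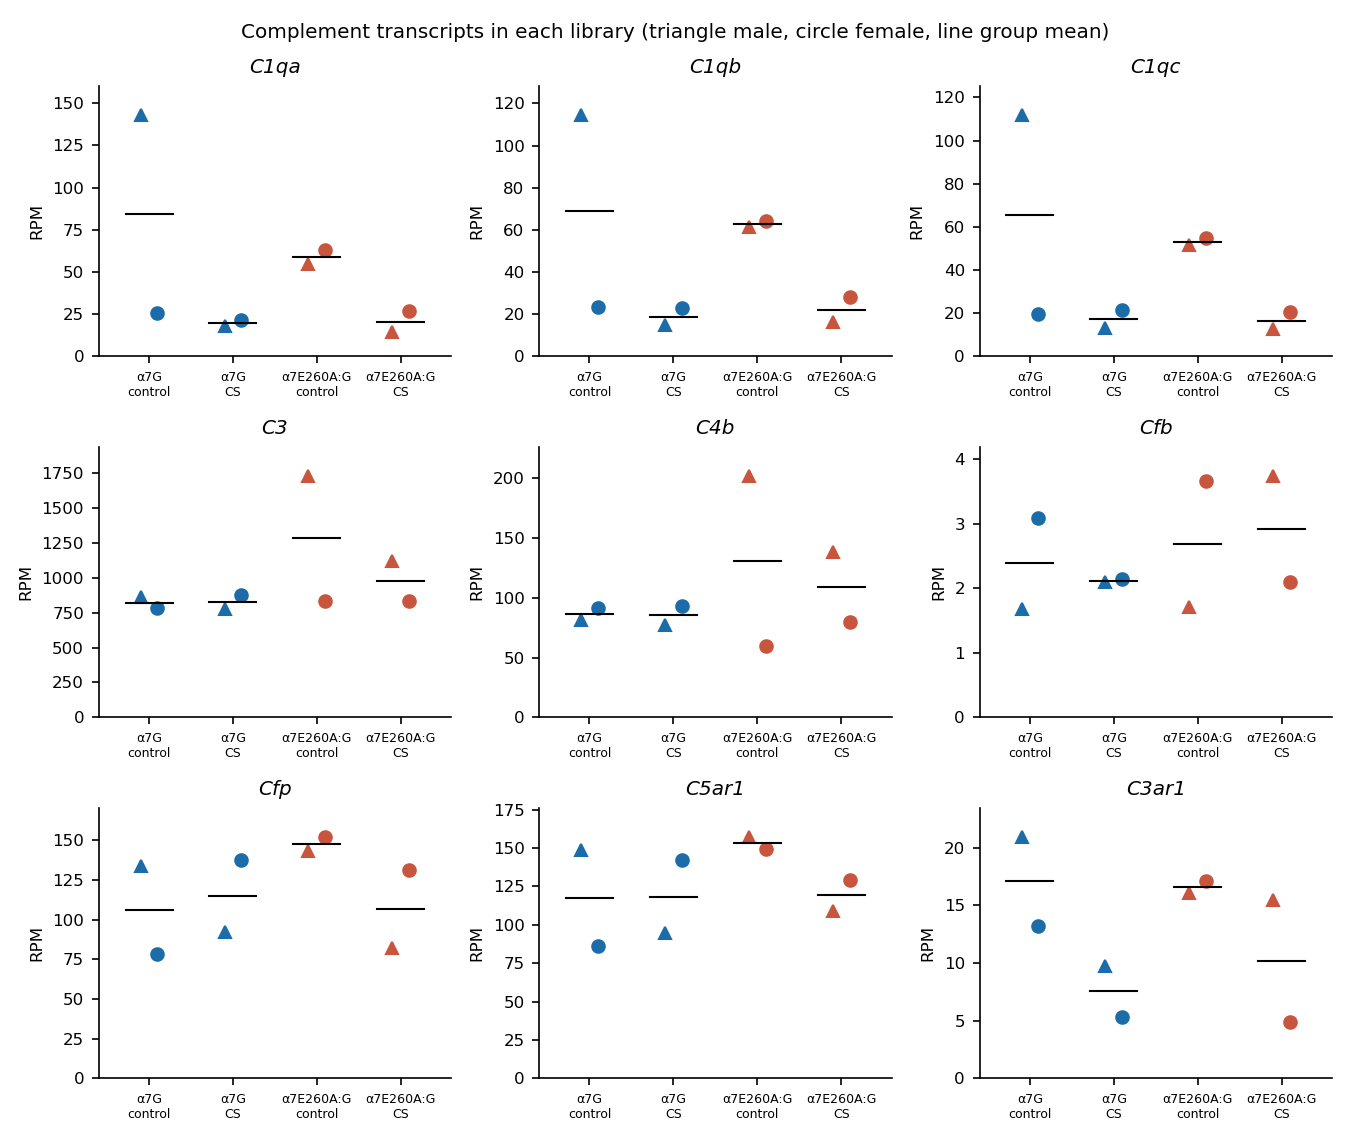
RPM (y axis, linear from 0) of each of the 9 complement genes in the 4 groups of line and exposure; triangles are male and circles female libraries, and lines are means of 2 libraries. The C1q panels show 1 male α7G control library at 112 to 143 RPM, both α7E260A:G control libraries between 51.4 and 64.2 RPM, and all other libraries below 29.

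The C1q chains gave the largest differences between CS and control among the members. C1qa, the A chain, had 143 RPM in the male and 25.5 in the female α7G control, 17.7 and 21.4 in α7G CS, 54.6 and 62.9 in α7E260A:G control, and 14.5 and 26.7 in α7E260A:G CS, in the same order of sexes. C1qb, the B chain, had 115 and 23.2 RPM in α7G control, 14.8 and 22.9 in α7G CS, 61.5 and 64.2 in α7E260A:G control, and 16.1 and 28.2 in α7E260A:G CS. C1qc, the C chain, had 112 and 19.4, 13.03 and 21.6, 51.4 and 54.9, and 12.7 and 20.4 RPM in the same groups. For each chain 3 of the 4 control libraries were far above all CS libraries, and the female α7G control lay inside the CS range. The lowest C1qa value rested on 116 counts (95% Wilson interval for counting error only, 12.1 to 17.3 RPM).

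Averaged over both lines, C1qa was 71.5 ± 50.3 RPM in control and 20.1 ± 5.24 RPM in CS libraries (SD, n = 4 each), C1qb 65.9 ± 37.5 and 20.5 ± 6.26, and C1qc 59.4 ± 38.4 and 16.9 ± 4.69. The exact two-sided permutation test over 70 arrangements, which cannot go below 0.0286, gave p = 0.0571 for C1qa, 0.0571 for C1qb and 0.0857 for C1qc. In edgeR's quasi-likelihood test the log2 fold change with CS over both lines was -1.77 (SE 0.53) for C1qa, -1.64 (SE 0.50) for C1qb and -1.76 (SE 0.53) for C1qc. The Benjamini-Hochberg adjusted p over 7197 genes was 0.63 for each, although the unadjusted p lay between 0.0115 and 0.0128. These differences therefore did not pass the threshold of 0.05, and DESeq2 gave adjusted p-values of 0.0643 for C1qa, 0.076 for C1qb and 0.0651 for C1qc.

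The pairs of libraries of one sex showed which samples carried the C1q difference. The ratio of CS to control was 0.124 for C1qa, 0.129 for C1qb and 0.117 for C1qc in α7G males. It was 0.265, 0.261 and 0.247 in α7E260A:G males and 0.424, 0.439 and 0.371 in α7E260A:G females. In α7G females the ratios were 0.84, 0.989 and 1.11, so that this pair showed little or no difference while the 3 other pairs all had lower values with CS. C1qa and C1qb were lower in 4 of 4 pairs, as were 12.1% of all genes tested, and C1qc in 3 of 4. Without the male α7G control library the fitted log2 fold changes were -0.94 for C1qa, -0.89 for C1qb and -0.92 for C1qc, with adjusted p = 0.989 in edgeR.

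**Figure D2:**
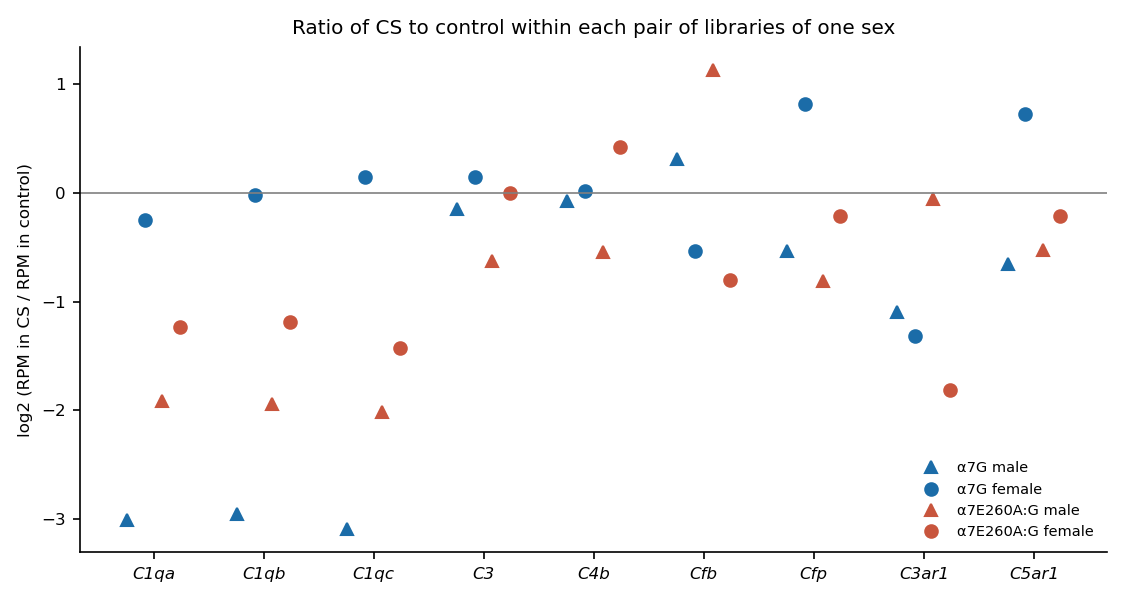
Log2 of the ratio of RPM in CS to RPM in control (y axis) for the 9 complement genes, with 1 point for each pair of libraries of the same line and sex; the grey line at 0 marks no difference. The C1q points of the α7G females sit near 0 and the other 3 pairs lie below it, at ratios of 0.117 to 0.439, while Cfp and C5ar1 are above 0 in α7G females only.

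Within each line the fitted CS difference of C1qa was -1.96 (SE 0.75) in α7G and -1.59 (SE 0.74) in α7E260A:G on the log2 scale. C1qb gave -1.72 (SE 0.71) and -1.57 (SE 0.70), and C1qc -1.77 (SE 0.75) and -1.76 (SE 0.75). With all 8 libraries in the model the edgeR adjusted p was 0.589 for each chain in α7G and 1.0 in α7E260A:G. A fit on the 4 α7G libraries alone gave 0.0581 for C1qa, 0.0743 for C1qb and 0.0876 for C1qc. That fit called 1156 of 7197 genes. The same fit on the 4 α7E260A:G libraries called 0 of 7197 genes. Its log2 fold changes were -1.58 (SE 0.50) for C1qa, -1.57 (SE 0.46) for C1qb and -1.75 (SE 0.44) for C1qc. The difference of the CS responses between the lines, tested as an interaction, was 0.37 (SE 1.02) for C1qa, 0.15 (SE 0.98) for C1qb and 0.01 (SE 1.04) for C1qc, with adjusted p from 0.997 to 0.999. The standard errors of about 1 log2 unit leave room for a sizable difference in either direction. Without the male α7G control the α7G difference was -0.30, -0.21 and -0.08, and the interaction -1.29, -1.36 and -1.68, for C1qa, C1qb and C1qc.

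Between the lines the C1q chains overlapped. C1qa averaged 51.9 ± 60.8 RPM in α7G and 39.6 ± 22.8 RPM in α7E260A:G (SD, n = 4 each). The edgeR log2 fold change of α7E260A:G against α7G was -0.12 (SE 0.51) for C1qa, 0.15 (SE 0.49) for C1qb and -0.09 (SE 0.52) for C1qc, with adjusted p from 0.965 to 0.986. Without the male α7G control the values were 0.71, 0.90 and 0.76, which turned the sign of C1qa and C1qc.

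The 3 chains kept nearly fixed proportions while their sum ranged from 43.3 to 369 RPM. The ratio of C1qa to C1qb stayed between 0.887 and 1.25, and that of C1qa to C1qc between 0.995 and 1.36. Over the 8 libraries, which differ in depth and CDS length dependence, Pearson's r of log2(RPM + 0.5) was 0.986 to 0.994 between chains, given as a description. Among the other genes that passed the filter, those most like the C1q mean were Mgl2 (r = 0.986), a macrophage and dendritic cell lectin, Fgl2 (0.908), Trem1 (0.902), a myeloid receptor, Selplg (0.901), a leukocyte ligand of P-selectin, and Plbd1 (0.897). Mgl2 had 94.5 RPM in the male and 8.11 in the female α7G control, 4.66 and 5.75 in α7G CS, 40.0 and 26.1 in α7E260A:G control, and 4.24 and 10.5 in α7E260A:G CS. The high and low libraries of Mgl2 were thus those of the C1q chains.

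Macrophage marker lists gave values beside this pattern. Of 16 interstitial macrophage and monocyte markers, 14 had a lower mean with CS, all 16 were detected, and their sum ranged from 4855 to 7544 RPM in control and from 3124 to 6326 RPM in CS libraries. Cd74, which the paper describes as also expressed by ATII cells, was the largest part of that sum. It had 5050 RPM in the male α7G control and 1380 in the male α7E260A:G CS library. Cd163, a scavenger receptor of resident macrophages, had 67.0 RPM in the male α7G control, 23.6 in the male α7E260A:G control, and between 3.49 and 7.86 in the other 6 libraries. Of 14 alveolar macrophage markers, 11 had a higher mean with CS, and the C1q sum was 0.145% to 3.59% of the summed alveolar macrophage list. Ptprc was lower with CS in 4 of 4 pairs, with ratios of 0.415 and 0.556 in α7G males and females and 0.764 and 0.885 in α7E260A:G. Csf1r, the macrophage growth factor receptor, was also lower in 4 of 4 pairs, with ratios of 0.511, 0.803, 0.616 and 0.871 in the same order. Of the 12 markers of the general macrophage list, which holds Csf1r, 7 had a lower and 5 a higher mean with CS. That list summed to 11430 to 25150 RPM in control and to 12490 to 26260 RPM in CS libraries. Cd68, also in it, went from 485 to 767 RPM in α7G males and from 514 to 663 in females. In α7E260A:G males and females Cd68 went from 720 to 1190 and from 952 to 1440. The part of these cells in the C1q values was not tested.

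The C1q genes lie side by side on chromosome 4, from 136436044 (C1qb, the first gene) to 136454718 (the end of C1qa) in mm9, all on the minus strand, and each CDS is in 2 parts. The RefSeq promoter table, on build GRCm38.p6, matched 6 of the 9 members by symbol: C1qb, C1qc, C3, C3ar1, C5ar1 and Cfp. The 250 bases before the start of C1qb (chr4:136886201-136886450) and of C1qc (chr4:136892915-136893164) are printed 5' to 3' on the gene's strand, because these chains had parallel values in all libraries. Capitals mark AGGAAG, the core bound by ETS factors such as PU.1, or its reverse complement, a motif picked after the sequences had been read.
C1qb: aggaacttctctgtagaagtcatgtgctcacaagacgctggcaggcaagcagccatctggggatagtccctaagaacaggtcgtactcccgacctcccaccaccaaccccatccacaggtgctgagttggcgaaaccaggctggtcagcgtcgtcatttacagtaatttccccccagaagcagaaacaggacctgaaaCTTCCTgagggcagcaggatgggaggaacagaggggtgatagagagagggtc
C1qc: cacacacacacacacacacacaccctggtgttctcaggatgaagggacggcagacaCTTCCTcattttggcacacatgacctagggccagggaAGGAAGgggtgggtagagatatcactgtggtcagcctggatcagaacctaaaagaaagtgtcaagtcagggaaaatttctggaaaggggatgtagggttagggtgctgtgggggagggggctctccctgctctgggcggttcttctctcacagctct
C1qb had 1 match, 52 bases before the start, and C1qc had 2, at 194 and 157 bases. Of 32851 promoter windows of the same length, 29.5% held the motif, so a match is a description of the sequence and no more.

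C3, the component on which all pathways converge, was the most abundant member and showed its highest values in male α7E260A:G libraries. It had 860 RPM in the male and 784 in the female α7G control, 774 and 874 in α7G CS, 1729 and 836 in α7E260A:G control, and 1117 and 835 in α7E260A:G CS. The female α7E260A:G libraries were inside the α7G range of 774 to 874 RPM. C4b, which encodes C4 of the classical pathway, had 81.4 and 91.8 RPM in α7G control, 77.4 and 93.1 in α7G CS, 202 and 59.5 in α7E260A:G control, and 138 and 79.5 in α7E260A:G CS. As with C3, only the male α7E260A:G libraries stood above the α7G range. C4b has a near-identical paralog, C4a, which is not analysed here, so its counts are uncertain.

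C3 averaged 823 ± 51.4 RPM in α7G and 1129 ± 421 in α7E260A:G (SD, n = 4 each), and the exact permutation p was 0.171. The edgeR log2 fold change was 0.47 (SE 0.20), with adjusted p = 0.41. For C4b the means were 85.9 ± 7.72 and 120 ± 64.1 RPM, with an exact permutation p of 0.4. Its edgeR log2 fold change was 0.47 (SE 0.31), with adjusted p = 0.657. Leaving out the male α7E260A:G control reduced the difference to 0.25 for C3 and 0.01 for C4b. The genotype comparison called 6 of 7197 genes in edgeR (0.0834%) and none of the 7 members. The RPM of the lines did not overlap for 8.13% of all genes and for none of the 7 members.

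With CS, the log2 fold change was -0.15 (SE 0.20) for C3 and -0.09 (SE 0.31) for C4b, with adjusted p of 0.781 and 0.91 in edgeR. These are long genes, with a CDS of 4989 bases for C3 and 5223 for C4b against 735 to 759 bases for the C1q chains, and the male α7E260A:G control was the library with the strongest length dependence. With an offset for CDS length the CS values over both lines turned to 0.32 (SE 0.24) for C3 and 0.45 (SE 0.18) for C4b, with adjusted p of 0.953 and 0.662. The C1q values became -2.01 for C1qa, -1.87 for C1qb and -1.998 for C1qc, with adjusted p = 0.328. The lines differed under this offset: C3 was 0.88 (SE 0.35) in α7G and -0.24 (SE 0.35) in α7E260A:G. C4b was 0.86 (SE 0.26) and 0.05 (SE 0.26). The interactions were -1.12 (SE 0.49) for C3 and -0.81 (SE 0.36) for C4b, each with edgeR adjusted p = 0.942. After removal of the length dependence 2 of the 7 members, C1qa and C1qc, no longer overlapped between CS and control (both lower, exact permutation p = 0.0286 each, the smallest possible), against 1.75% of all genes in that direction. These chains are correlated and not separate observations. In plain RPM 0 of 7 members and 2.07% of all genes did not overlap.

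**Figure D3:**
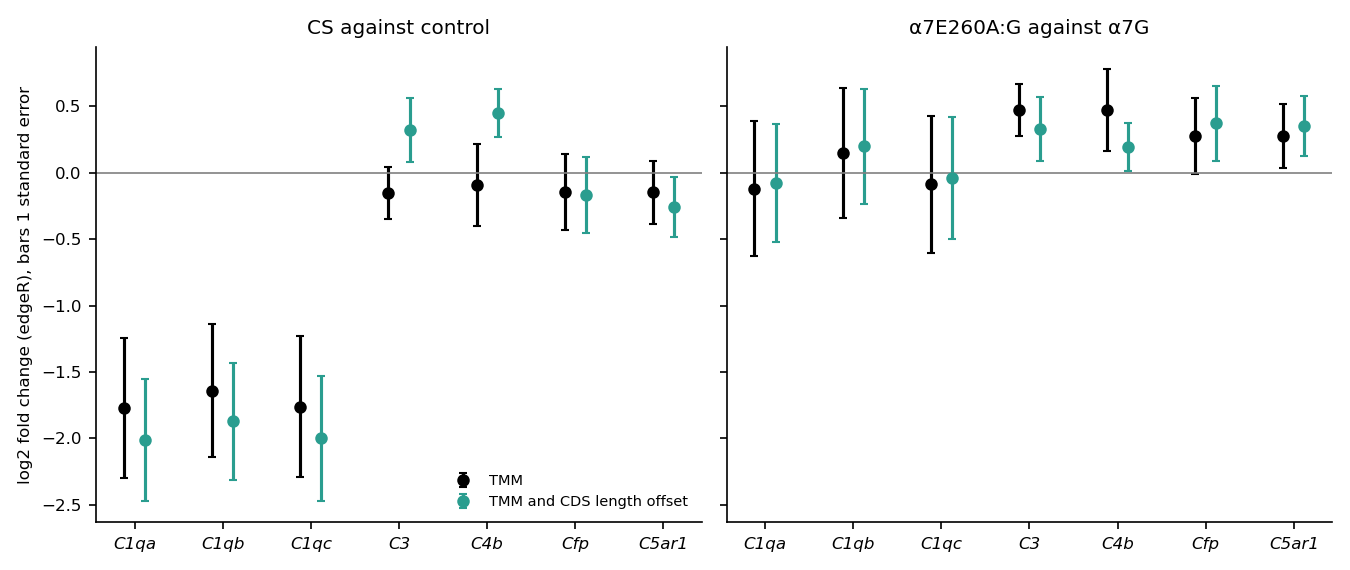
Log2 fold change (y axis) from edgeR with bars of 1 standard error for the 7 complement genes that passed the abundance filter, for CS against control over both lines (left) and α7E260A:G against α7G over both exposures (right); black points use TMM scaling and green points add an offset for CDS length. The C1q chains lie near -1.7 to -2.0 with CS under both, whereas C3 and C4b move from slightly below 0 to 0.32 and 0.45.

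C4b made up 7.12% to 12.4% of C3 in RPM in every library. Over 8 libraries r was 0.912 between them (rho = 0.762), 0.764 after removal of the length dependence and 0.019 without the 2 libraries farthest from the median, so in RPM it rested on the male α7E260A:G pair. The genes most like C3 were Col6a3 (r = 0.97), Emilin1 (0.951), Lrp4 (0.948), Mapkapk3 (0.942) and Svep1 (0.942), of which Col6a3 and Emilin1 encode extracellular matrix proteins. Without the 2 male α7E260A:G libraries their r with C3 was 0.184 to 0.729, and Col6a3 and Svep1 have CDS lengths of 9818 and 10701 bases. A list of 12 fibroblast and stroma markers summed to 4879 RPM in the male α7E260A:G control and to 1527 RPM in the female, and all 12 were detected; its part in the C3 and C4b values was not tested.

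The 250 bases before the start of C3 (chr17:57228137-57228386, GRCm38.p6) are shown because C3 was the one member window with a match to TTGCNNAA, a pattern bound by C/EBP factors, marked in capitals at 45 bases before the start. The pattern was also chosen after reading the sequences, and 9.56% of all windows held it on either strand.
C3: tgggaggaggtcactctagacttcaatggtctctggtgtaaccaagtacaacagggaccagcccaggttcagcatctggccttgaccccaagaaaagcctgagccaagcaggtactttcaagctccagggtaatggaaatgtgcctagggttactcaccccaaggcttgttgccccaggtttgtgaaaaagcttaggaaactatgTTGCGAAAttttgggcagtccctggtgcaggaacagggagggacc
A search for the interferon-stimulated response element (ISRE) found no match in the 6 windows and found one in 2.98% of all promoters.

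Cfb, the protease subunit of the alternative pathway convertase, was the least abundant member. It had 1.68 and 3.10 RPM in the male and female α7G control, 2.10 and 2.14 in α7G CS, 1.71 and 3.66 in α7E260A:G control, and 3.74 and 2.10 in α7E260A:G CS. These rested on 14 to 40 counts per library, and the Wilson interval of the highest value, 2.62 to 5.34 RPM, overlapped that of the lowest, 1.00 to 2.83 RPM. With the filterByExpr filter, which kept 14140 genes, the edgeR log2 fold change was -0.05 (SE 0.46) with CS and 0.41 (SE 0.46) between lines. The libraries overlapped in both comparisons. Cfb lies on chromosome 17 at 34993319 to 34999463 in mm9, near C4b at 34865325 to 34880827, and its values did not follow those of C4b (r = -0.211 over 8 libraries).

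Cfp, which encodes properdin, and C5ar1, the C5a receptor, had parallel values across the libraries. Cfp had 134 RPM in the male and 78.1 in the female α7G control, 92.1 and 138 in α7G CS, 143 and 152 in α7E260A:G control, and 81.8 and 131 in α7E260A:G CS. C5ar1 had 149 and 86.0 RPM in α7G control, 94.5 and 142 in α7G CS, 157 and 149.6 in α7E260A:G control, and 109 and 129 in α7E260A:G CS. In both genes the female α7G control, the male α7G CS and the male α7E260A:G CS libraries were the lowest, and the other 5 lay above them. The ratio of C5ar1 to Cfp stayed between 0.984 and 1.34. Their r over 8 libraries was 0.935 (rho = 0.929), 0.96 without the 2 farthest libraries and 0.864 after removal of the length dependence.

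**Figure D4:**
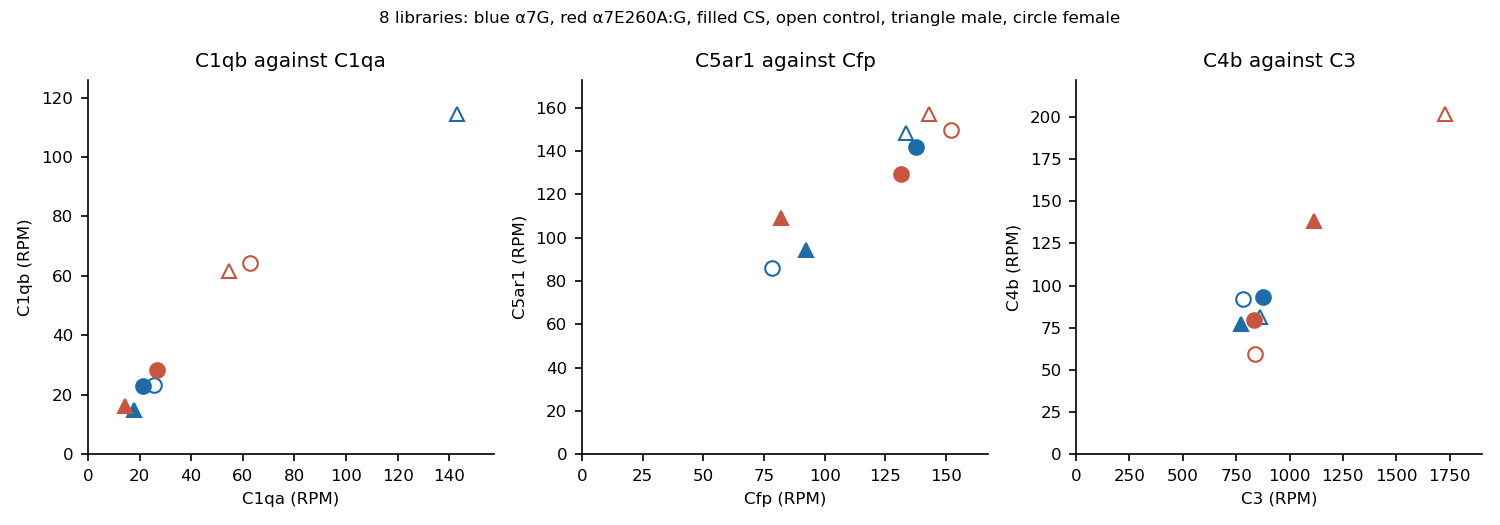
RPM of C1qb against C1qa, of C5ar1 against Cfp and of C4b against C3 (linear axes from 0) with 1 point per library; blue is α7G, red α7E260A:G, open symbols control, filled symbols CS, triangles male and circles female. The C1q points run along a line to the male α7G control, Cfp and C5ar1 fall into 3 low and 5 high libraries, and the C3 and C4b relation is drawn out by the male α7E260A:G libraries.

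In the α7G pairs the CS to control ratio of Cfp was 0.69 in males and 1.76 in females, and that of C5ar1 0.636 and 1.65, so the sexes went opposite ways. In α7E260A:G the ratios were 0.572 and 0.864 for Cfp and 0.696 and 0.865 for C5ar1. Over both lines the edgeR log2 fold change with CS was -0.15 for Cfp (SE 0.29) and for C5ar1 (SE 0.24), with adjusted p of 0.846 and 0.816. Between the lines it was 0.28 (SE 0.29 and 0.24), with adjusted p of 0.832 and 0.782. Neither difference was larger than the spread between libraries. The interaction was -0.79 (SE 0.57) for Cfp and -0.59 (SE 0.48) for C5ar1, with adjusted p = 0.997 in edgeR.

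The windows of Cfp (chrX:20931556-20931805) and C5ar1 (chr7:16259339-16259588), again on GRCm38.p6, are given because these genes of different chromosomes had parallel values.
Cfp: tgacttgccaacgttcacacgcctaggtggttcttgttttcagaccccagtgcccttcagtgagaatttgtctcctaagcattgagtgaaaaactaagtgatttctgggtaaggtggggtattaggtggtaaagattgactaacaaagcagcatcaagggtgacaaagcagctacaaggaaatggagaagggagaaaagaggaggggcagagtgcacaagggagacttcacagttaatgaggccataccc
C5ar1: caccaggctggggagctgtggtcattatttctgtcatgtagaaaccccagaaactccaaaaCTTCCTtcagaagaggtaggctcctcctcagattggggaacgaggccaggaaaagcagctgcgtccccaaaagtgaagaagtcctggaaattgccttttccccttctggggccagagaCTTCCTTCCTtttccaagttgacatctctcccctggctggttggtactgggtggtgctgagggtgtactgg
C5ar1 had 3 matches of AGGAAG, at 189, 71 and 67 bases before its start, of which the last pair overlap in the run of capitals, and Cfp had 0. In mm9 C5ar1 lies on chromosome 7, as does Chrna7, at a distance of 53.4 megabases.

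C3ar1, the receptor of C3a, was lower with CS in 4 of 4 pairs. It had 20.9 and 13.2 RPM in the male and female α7G control, 9.78 and 5.30 in α7G CS, 16.1 and 17.1 in α7E260A:G control, and 15.5 and 4.87 in α7E260A:G CS. All control libraries but the female α7G were above all CS libraries, and the male α7E260A:G CS library was close to its control, with a ratio of 0.961 against 0.467, 0.401 and 0.285 in the other pairs. The means were 16.8 ± 3.18 in control and 8.85 ± 4.93 RPM in CS (SD, n = 4 each), with an exact permutation p of 0.0571. The edgeR log2 fold change, from the filterByExpr fit, was -0.94 (SE 0.37), with adjusted p = 0.653. Over 8 libraries r between C3ar1 and C5ar1 was 0.093 (rho = 0.524), 0.769 without the 2 farthest libraries and 0.256 after removal of the length dependence. With the C1q chains r was 0.538 to 0.561, and 0.148 to 0.164 without the 2 farthest.

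Across the 7 members that passed the filter, 0 were called with CS over both lines, in α7G, in α7E260A:G or for the interaction, where edgeR called 0 genes of 7197 (0.0% in each). At an unadjusted p under 0.05, 3 of 7 members, the C1q chains, were counted with CS against 7.57% of all genes, 1 of 7 (C3) between lines against 11.9%, and 3 of 7 with CS in α7G against 6.75%. DESeq2 called 0 members with CS and 0 between lines, against 0.542% and 5.92% of all genes. Female against male called 0 members, against 0.0278% of all genes. The median log2 fold change of the 7 members was -0.15 with CS and 0.28 between lines, and that of all genes was -0.004 and 0.038. All comparisons used the same libraries in several roles, so the counts are not independent. The 3 C1q chains, with r of 0.986 to 0.994 between them, are not separate observations either.

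The rest of the complement system was represented by 49 further genes, of which 17 passed the filter and 5 had no count in any library. Between lines edgeR called 0 of the 17, 8 had an unadjusted p under 0.05 (11.9% of all genes), and the median log2 fold change was 0.02. DESeq2 called 6 of them (C6, Cd55, Clu and Hc lower in α7E260A:G, Itgax and Itgb2 higher), against 5.92% of all genes. Of the terminal components, Hc and C6 had negative values between lines, and C7 had 0.61 (SE 0.63, edgeR adjusted p = 0.828). The sexes went opposite ways for C7. Its α7E260A:G to α7G ratios in control and CS were 2.32 and 1.66 in males, and 0.531 and 0.921 in females. Female against male, C7 was -1.52 in DESeq2 (adjusted p = 0.00194), which called 51 of 7197 genes there, and -1.53 in edgeR (adjusted p = 0.228). Hc, which encodes C5, had 759 and 671 RPM in the male and female α7G control, 139.7 and 339 in α7G CS, 187 and 175 in α7E260A:G control, and 72.2 and 124 in α7E260A:G CS. Its log2 fold change was -1.56 (SE 0.34, edgeR adjusted p = 0.121) between lines and -1.19 (SE 0.34, adjusted p = 0.63) with CS, and it was lower in 4 of 4 pairs in each comparison, as were 15.0% of all genes between lines.

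C6, another terminal component, had 50.0 and 41.9 RPM in α7G control, 22.0 and 38.7 in α7G CS, 17.9 and 8.68 in α7E260A:G control, and 10.9 and 15.2 in α7E260A:G CS. All 4 α7E260A:G libraries were below all 4 α7G libraries (exact permutation p = 0.0286), with a log2 fold change of -1.46 (SE 0.29, edgeR adjusted p = 0.106). With the CDS length offset C6 and Cr2, the complement receptor of B cells, passed the edgeR test, both lower in α7E260A:G, where 3.86% of all genes passed. Without the offset Cr2 was -0.81 (SE 0.26, adjusted p = 0.257). A list of 7 B cell markers also had a lower mean in α7E260A:G for all 7, with sums of 1282 to 2167 RPM in α7G and 709.7 to 883.9 RPM in α7E260A:G; its part in the Cr2 values was not tested. Of the surface and fluid regulators, Cd55, which speeds the decay of convertases, was -0.73 (SE 0.17, adjusted p = 0.135) and Clu, the fluid phase regulator clusterin, was -0.89 (SE 0.26, adjusted p = 0.198) between lines, each without overlap of the libraries. Many epithelial markers were lower in the same libraries: Epcam was lower in α7E260A:G in 4 of 4 pairs, with ratios of 0.37 to 0.678. Lower means were also found for 10 of 10 ATII cell, 6 of 6 club cell and 5 of 5 general epithelium markers. Of 6 ciliated cell markers 4 were lower, and their sums overlapped (558.9 to 978.2 RPM in α7G, 392.4 to 750.3 in α7E260A:G). Outside the epithelium 7 of 8 endothelium, 4 of 4 mesothelium and 4 of 12 fibroblast and stroma markers had a lower mean in α7E260A:G. The part of these cells in the Hc, C6, Cd55 and Clu values was not tested. Cr1l, which encodes the membrane regulator Crry, was -0.09 (SE 0.18).

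The chains of the integrin receptors for cleaved C3 were split. Itgax had 611 to 694 RPM in α7G control, 514 to 541 in α7G CS, 702 to 1109 in α7E260A:G control and 939 to 1208 in α7E260A:G CS, and its log2 fold change between lines was 0.79 (SE 0.15, edgeR adjusted p = 0.106). Itgb2, the shared β chain, was 0.53 (SE 0.15, adjusted p = 0.198), and Itgam was -0.01 (SE 0.38). With CS, Itgam was -1.01 (SE 0.39, adjusted p = 0.63) and lower in 4 of 4 pairs, whereas Itgax was -0.001 (SE 0.15). Itgax is also in the alveolar macrophage list, whose 14 members all had a higher mean in α7E260A:G. Of the 17 genes, 5 (C6, Clu and Cd55 lower, Itgax and Itgb2 higher) did not overlap between lines, and the same background of 8.13% applies.

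Among the partners of C1q, the protease genes C1ra and C1s and the C1 inhibitor Serping1 had positive CS values, opposite in sign to the C1q chains. C1ra was 0.53 (SE 0.14, edgeR adjusted p = 0.63), C1s 0.55 (SE 0.26, adjusted p = 0.636) and Serping1 0.72 (SE 0.20, adjusted p = 0.63). For C1ra the value was 1.03 (SE 0.20) in α7G and 0.03 (SE 0.20) in α7E260A:G, and the difference of the responses, -1.01 (SE 0.28), did not pass (edgeR adjusted p = 0.997). DESeq2 called C1ra for CS in α7G (adjusted p = 0.000838), the one call of the 17 there, where it called 27 of all 7197 genes. For Serping1 the values were 1.02 (SE 0.28) and 0.42 (SE 0.27), with an interaction of -0.60 (SE 0.39, edgeR adjusted p = 0.997). Serping1 had 231 and 276 RPM in the male and female α7G control, 485 and 463 in α7G CS, 372 and 177 in α7E260A:G control, and 409 and 346 in α7E260A:G CS, higher with CS in 4 of 4 pairs, as were 13.1% of all genes. Of the 12 fibroblast and stroma markers, 9 had a higher and 3 a lower mean with CS. Their sums were 1527 to 4879 RPM in control and 2730 to 3915 RPM in CS libraries. Dcn, which encodes decorin, was higher in 4 of 4 pairs with ratios of 1.65 to 2.47. Fn1 and Eln, of the same list, went the other way. Fn1 went from 641 to 277 and 381 to 261 RPM in α7G males and females, and from 1540 to 353 and 347 to 184 in α7E260A:G. Eln went from 38.8 to 18.4, 27.5 to 18.4, 65.1 to 22.6 and 18.3 to 15.9 RPM in the same order. The part of these cells in the C1ra, C1s and Serping1 values was not tested. The gene models of C1ra, C1rb and C1s overlap in the annotation, so their counts are uncertain. With CS edgeR called 0 of the 17 genes, 4 had an unadjusted p under 0.05 (C1ra and Serping1 positive, Hc and Itgam negative) against 7.57% of all genes, and the median was 0.06. Cd93, Calr and C1qbp, which also passed the filter, lay between 0.04 and 0.72 between lines and between -0.28 and 0.38 with CS. In the main edgeR fit none had an adjusted p below 0.493. For Cd93 between lines it was 0.127 with the CDS length offset, and 0.0594 with sex as a block in addition.

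**Figure D5:**
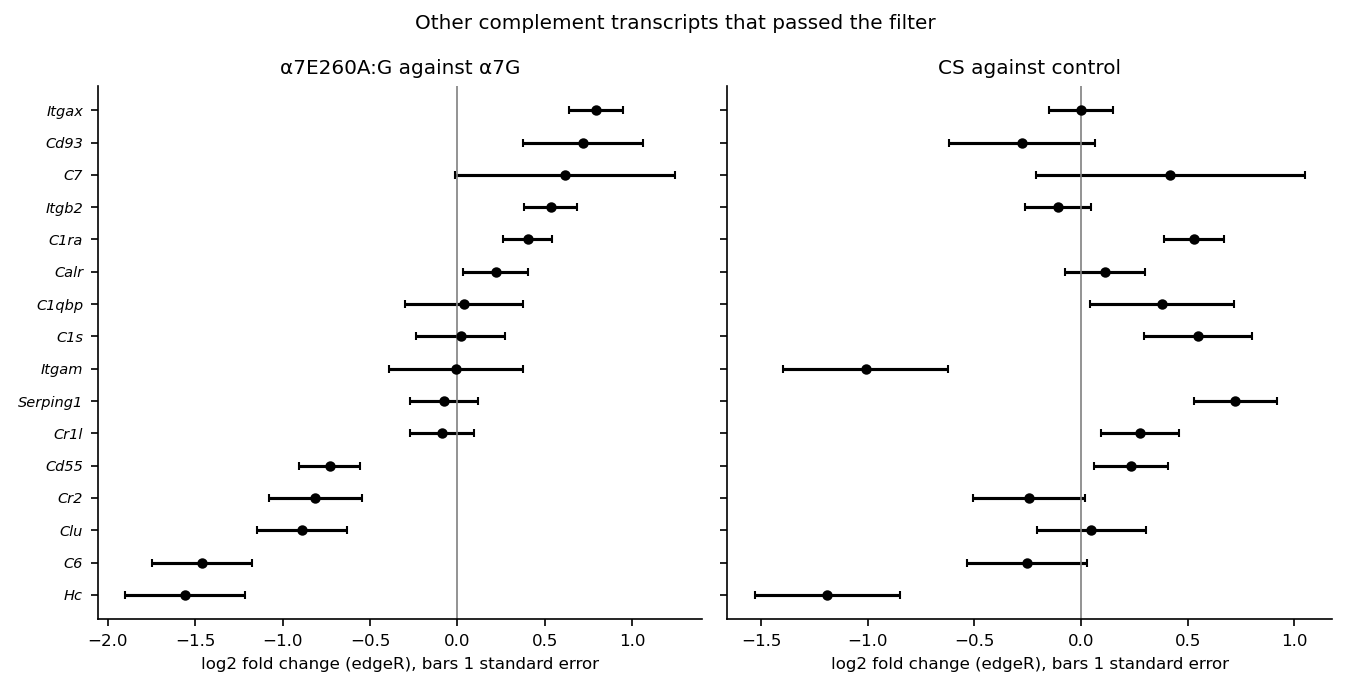
Log2 fold change (x axis) from edgeR with bars of 1 standard error for 16 of the 17 other complement genes that passed the filter, between lines (left) and for CS against control (right), in the order of the left panel. Hc and C6 are lowest between lines at -1.56 and -1.46, and with CS Hc and Itgam are lowest at -1.19 and -1.01 while Serping1 is highest at 0.72.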

How the data were processed

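RNA-Seq was done on distal lung cells that, per the labels, were depleted of CD45-positive cells and enriched for epithelium. The authors aligned reads of stranded poly(A) libraries with STAR to mm9 (NCBIM37), counted them on CDS annotations of GENCODE release M1 with htseq-count, and deposited raw counts per gene for each of 8 libraries. Tool versions are not given in the sources used here. All 22756 identifiers and symbols matched that annotation, which gave coordinates and CDS lengths. RPM was the count scaled to a library total of 1000000.

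Following the methods of the study, the test took genes averaging 200 or more counts, without immunoglobulin, histocompatibility, Gm-named and ribosome subunit genes (7197 genes). The main test was edgeR 4.0.16 (quasi-likelihood, TMM, R 4.3.3), with 4 groups in one model without sex and Benjamini-Hochberg adjustment over all genes at 0.05. Groups had 2 libraries, 1 of each sex, so p-values measure the spread between these libraries, which includes any difference between the sexes. At an unadjusted edgeR p under 0.05, female against male counted 1575 of 7197 genes, genotype 854 and CS 545. Single genes had a two-sided exact permutation test. Alternatives were library size scaling, DESeq2 1.42.0, other filters, a lowess offset for CDS length, sex as a block and leaving out each library; filterByExpr with the length offset was added after seeing the data. Fits were tested on simulated data. Wilson intervals at 95% and floors of 3 counts cover counting error only. Promoter windows came from the RefSeq table (GRCm38.p6) and were searched on both strands.

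All 9 members are named. Other complement genes were named where their mean count reached 200, except for an item not reported here, and marker lists and the 5 genes most like C1q or C3 were taken by rule. The members and lists were chosen with earlier results of these data known.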

Additional observations from a re-analysis of the deposited data

Results flagged for a closer look

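Of 36 groups of 4 libraries examined over the 9 members (the libraries of a line, or of control or CS), 7 had an extreme library whose gap to its nearest neighbour, as a share of the range, exceeded the 95% critical value of Dixon's test for 4 samples. For 4 values from a single normal population chance gives about 1 in 20. These groups mix exposures or lines and both sexes, and they reuse the same libraries, so that rate does not apply to them. The male α7G control was the high library among the α7G libraries for C1qa (gap 0.938 of the range), C1qb (0.916) and C1qc (0.914), which are correlated and not separate observations. The male α7E260A:G control was the high one among controls for C3 (0.92). The male α7E260A:G CS library was high among CS libraries for Cfb (0.971), on 30 counts. The female α7E260A:G CS library was low among α7E260A:G libraries for C3ar1 (0.867), and the female α7G control was low among controls for C5ar1 (0.879).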

How the results depend on the processing

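Under every alternative run, edgeR and DESeq2 called 0 members in each comparison. The lowest adjusted p of any member over all alternatives was 0.0643 for CS, 0.0581 for CS in α7G, 0.31 for CS in α7E260A:G, 0.0737 for genotype and 0.311 for the interaction. Over all genes the genotype calls ranged more widely: 6 in the main analysis, 9 with library size scaling, 13 with filterByExpr, 69 with all genes, 278 with the CDS length offset and 426 with DESeq2; the cause was not tested. For CS over both lines DESeq2 called 39 genes against 0. In α7G alone, a fit on only its 4 libraries called 1156 genes for CS, 0 of them members. Library size scaling moved the median of all genes for CS in α7G to -0.141 and for the interaction to 0.221. The number of members not overlapping between CS and control was 0 in RPM, 2 with the length dependence removed and 0 to 5 of all 9 when 1 library was left out. It was 5 without the female α7G control (the C1q chains, C5ar1 and C3ar1, of which 4 passed the filter, against 4.9% of all genes), 2 without the female α7E260A:G CS library (C1qa and C1qb, against 2.75%) and 1 without the male (C3ar1, against 11.2%).

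With DESeq2 the direction turned for the C1qc interaction (-0.019). It also turned for the CS difference of the long genes over both lines with the CDS length offset. There C3 was 0.323 (0.342 with filterByExpr) and C4b 0.451 (0.467 with filterByExpr). Further turns included C1qc for female against male with DESeq2 (0.019). With the offset they included C1qb (-0.153), C3 (0.478) and C4b (0.319) for female against male, and C4b for CS in α7E260A:G (0.045). Leaving out 1 library at a time gave these ranges on the log2 scale for some of the results that turned. For genotype they were -0.51 to 0.71 for C1qa, -0.23 to 0.90 for C1qb and -0.48 to 0.76 for C1qc. For the interaction they were -1.29 to 1.11, -1.36 to 0.85 and -1.68 to 0.76. For CS they were -0.30 to 0.059 for C3, -0.36 to 0.36 for C4b, -0.41 to 0.05 for Cfp and -0.32 to 0.053 for C5ar1. The CS difference of the C1q chains stayed negative throughout, at -2.12 to -0.94, -1.98 to -0.89 and -2.12 to -0.92.

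The replicate number stands for sex and no shared mouse or litter. Same-sex deviations correlated from -0.122 to 0.834 between groups, not above 0.1 in every pair, so the replicate block was only an alternative. It called 40 genes for genotype and 0 for CS, and 0 members in either; with the length offset it called 573 and 3, and for genotype 5 of the 17 other complement genes (C6, Clu, Cr2, Hc and Itgax). With both, C1qc was 0.001 for genotype, and C3 and C4b were 0.331 and 0.452 for CS.

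Each group had 2 libraries, and the common dispersion was 0.0766. Cfb rested on 14 to 40 counts per library, and the Wilson intervals of its extreme libraries overlapped.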

Other observations

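Mbl2, Colec10, C8b and Cpb2 had 0 counts in all 8 libraries, which allows up to 0.27 to 0.37 RPM per library. Fcna, a macrophage ficolin, had 12.9 RPM in the male α7G control and 9.63 in the male α7E260A:G control, and between 1.82 and 6.08 RPM in the other 6 libraries. C2, the classical pathway protease that pairs with C4, lay between 3.13 and 9.54 RPM. The ratio of Itgax to Itgam ranged from 2.23 in the male α7G control to 12.3 in the female α7E260A:G CS library, and was higher with CS in 4 of 4 pairs of the same line and sex; it was not tested.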
